A study of Mus musculus with 272 samples.

Results

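The Obox genes are a rodent family of homeobox genes that lie in a cluster on mouse chromosome 7. Members were the rows of the table whose symbol is Obox followed by a number. They came to 9 of the 15771 symbols kept when 1 of each set of identical rows was used, and no Obox row had an identical twin. Of the 9, 6 were protein-coding genes and 3 were pseudogenes by their symbols. From earlier knowledge of the family, Obox1, Obox2, Obox5 and Obox7 were taken as maternal members, stored in the oocyte. Obox3 was taken as a 2-cell member, Obox6 as another protein-coding member, and Obox3-ps1, Obox3-ps4 and Obox6-ps1 as pseudogenes. Obox4 and Obox8 were not analysed here.

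Obox proteins carry a paired-like homeodomain, a DNA-binding fold that is close to that of the Crx and Otx factors. The maternal members are transcribed while the oocyte grows, and their transcripts are inherited by the embryo. The 2-cell members are transcribed from the embryo's own genome when mouse zygotic genome activation takes place. Obox factors are known to take part in that activation, and maternal and embryonic members can stand in for each other in part.

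The study sequenced whole oocytes and embryos and, beside them, the fractions of sucrose gradients that separate transcripts by how many ribosomes they carry. The 8 groups were mouse germinal vesicle (GV) oocytes, metaphase II (MII) oocytes, zygotes, 2-cell, 4-cell and 8-cell embryos, morulae and blastocysts. Each stage had 4 transcriptome libraries, from pools of 20, and 3 gradients of about 100 oocytes or embryos, lysed in cycloheximide and cut into 10 fractions. Strain, genotype and age are not given in the sources used here, and p-values measure the spread between these pools, averaged over the stages of a fit. Values are CPM, the reads of a gene per 1 M reads of its library. A CPM is a share of a library, so more transcript per embryo and less of other RNA cannot be told apart.

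Transcriptome depth lay between 11.8 and 25.2 M reads, and fraction depth between 0.0105 and 44.0 M (median 19.0 M). Fraction 1 of the GV gradients A and B held under 0.1 M. The oocyte markers Gdf9, Bmp15, Zp3, Figla, Ooep and Mos summed to between 15490 and 17264 CPM in GV oocytes and to 60.5 CPM at most in 4-cell embryos. The 5 markers of the 2-cell embryo summed to between 2231 and 2971 CPM in 2-cell libraries. The 6 blastocyst markers summed to between 2187 and 2749 CPM in blastocysts. Of 7 cumulus and granulosa markers, the 3 in the table summed to 68.9 CPM at most. Of 4 sperm markers only Prm2 was in the table, at 19.3 CPM at most.

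Start-site windows are shown first, because they let the maternal and the 2-cell members be compared at the sequence level before their levels are. RefSeq windows of 300 bases, 250 before and 50 after the annotated start on GRCm38.p6, matched 5 of the 9 members. Obox5 lies at chr7:15750120-15750419 on the plus strand, Obox1 at chr7:15547007-15547306 on the plus strand and Obox3 at chr7:15639728-15640027 on the minus strand. In the windows below, written 5′ to 3′, the first run of capitals is a 25-base stretch present in all 5 windows. The second run is a 42-base stretch present in Obox1, Obox3, Obox5 and Obox7.
Obox5: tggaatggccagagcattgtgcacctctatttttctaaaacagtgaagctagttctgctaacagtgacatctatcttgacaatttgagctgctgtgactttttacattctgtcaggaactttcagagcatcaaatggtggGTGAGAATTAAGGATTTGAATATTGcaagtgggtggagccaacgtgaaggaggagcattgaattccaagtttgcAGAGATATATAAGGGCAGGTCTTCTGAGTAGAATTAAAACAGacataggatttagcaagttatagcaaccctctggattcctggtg
Obox1: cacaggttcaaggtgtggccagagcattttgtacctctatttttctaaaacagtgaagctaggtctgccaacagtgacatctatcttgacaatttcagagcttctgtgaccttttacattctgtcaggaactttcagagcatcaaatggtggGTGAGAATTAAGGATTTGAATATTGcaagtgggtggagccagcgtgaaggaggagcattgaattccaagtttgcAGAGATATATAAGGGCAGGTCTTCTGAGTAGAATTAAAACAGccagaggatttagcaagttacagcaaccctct
Obox3: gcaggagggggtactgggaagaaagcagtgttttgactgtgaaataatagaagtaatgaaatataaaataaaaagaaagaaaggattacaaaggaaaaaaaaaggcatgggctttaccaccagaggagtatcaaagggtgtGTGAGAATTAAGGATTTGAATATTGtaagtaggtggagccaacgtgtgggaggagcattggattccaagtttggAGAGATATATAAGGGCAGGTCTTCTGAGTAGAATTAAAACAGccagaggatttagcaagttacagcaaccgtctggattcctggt

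The 42-base stretch was found in 4 of 32851 windows of the table, all of them Obox windows. It began 24 bases before the annotated start of Obox1, 36 before that of Obox5, 35 before that of Obox3 and 10 before that of Obox7. It holds TATATAAG, a TATA-box sequence that 1.01% of all windows hold on either strand. The windows of Obox1, Obox5 and Obox7 were alike over nearly their whole length: Obox1 and Obox5 were 95.8% identical over 285 aligned positions, Obox1 and Obox7 94.3% over 283, and Obox5 and Obox7 97.1% over 273. Bases 1 to 203 of the Obox1 window were identical to bases 98 to 300 of the Obox2 window, which ends before the 42-base stretch. The Obox3 window aligned with the maternal ones in its start-site part: from base 137 of Obox1 and base 125 of Obox5 on, it was 93.3% identical over 164 bases and 92.6% over 175. These figures are for the best local alignment of each pair. GGATTA, the core bound by homeodomains of the Crx type, was searched on both strands and occurs in 7.06% of all windows. It was found once, in the Obox3 window at base 83, outside both capital stretches. A match of letters is a description and shows no binding.

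In whole oocytes and embryos, the family made up 2.04% of the reads in GV oocytes, 2.58% in MII oocytes and 3.17% in zygotes. At the 2-cell stage its share was 2.15%, and at the 4-cell stage 0.173%. The family sum was 20385 ± 664 CPM in GV oocytes, 25805 ± 2124 in MII oocytes and 31679 ± 1624 in zygotes (SD, n = 4 at each stage). It was 21485 ± 2045 CPM at the 2-cell stage, 1726 ± 414 at the 4-cell stage, 1521 ± 436 at the 8-cell stage, 1365 ± 548 in morulae and 33.8 ± 13.1 in blastocysts. The maternal members gave 99.96% of the family's reads in GV oocytes, 99.99% in zygotes and 96.5% at the 2-cell stage. From the 4-cell embryo on, Obox6 gave 98.6%, 99.5%, 99.5% and 93.1% of them, stage by stage to the blastocyst. The family therefore changed its main member between the 2-cell and 4-cell stages.

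**Figure D1:**
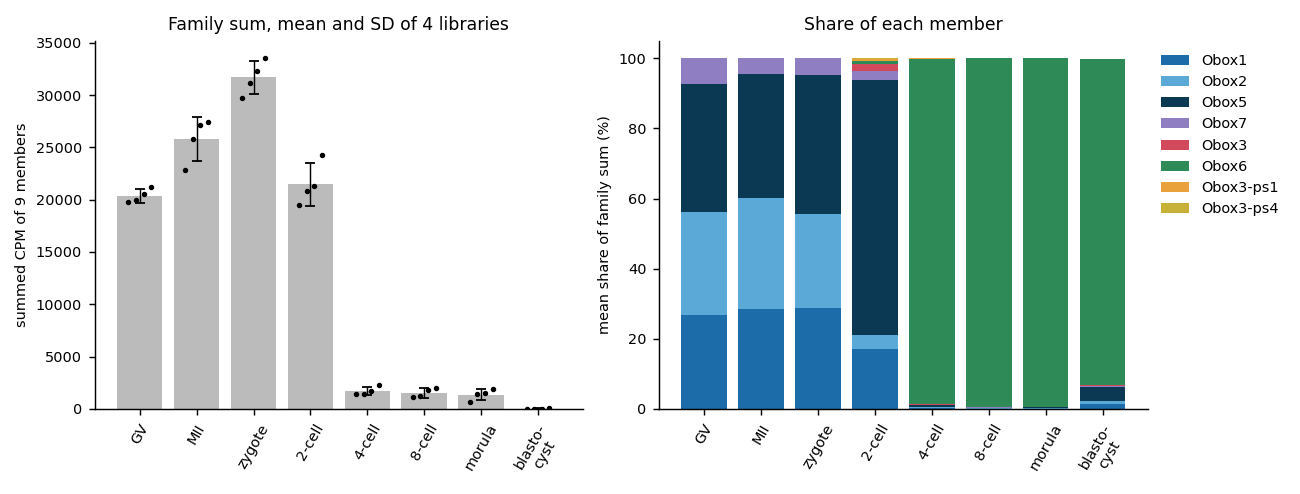
Left, the summed CPM of the 9 Obox members in each transcriptome library (points), with the mean (bars) and SD of 4 libraries per stage. Right, the mean share of that sum (%) taken by each member; maternal members (blues and purple) fill the bars to the 2-cell stage, with Obox5 at 72.6% there, and Obox6 (green) fills them from the 4-cell stage on.

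Obox5, a maternal homeobox gene and the member with the most reads in 2-cell embryos, was highest at that stage. Its 4 libraries lay between 7132 and 7793 CPM in GV oocytes, between 7967 and 9582 in MII oocytes, between 11469 and 13493 in zygotes and between 13635 and 17931 in 2-cell embryos. The stages did not overlap, and each was above the one before. No step reached the call, which required an adjusted p under 0.05 (Benjamini-Hochberg over all symbols tested) and a change of at least 1 on the log2(CPM + 1) scale in limma. From zygote to 2-cell the change was 0.31 ± 0.20 (SE; adjusted p = 0.19). In 4-cell embryos the libraries lay between 7.09 and 11.4 CPM.

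Obox1, also a maternal homeobox gene, was highest in zygotes. Its libraries lay between 5225 and 5721 CPM in GV oocytes, 6530 and 8038 in MII oocytes, 8570 and 9868 in zygotes and 3093 and 4053 in 2-cell embryos. The 2-cell libraries were below those of every earlier stage. Obox2, its neighbour in sequence, lay between 5700 and 6128 CPM in GV oocytes, 7271 and 8911 in MII oocytes and 7682 and 9345 in zygotes. Its 2-cell libraries lay between 760 and 1004 CPM, a mean 9.74-fold below that of zygotes. Obox7, the least abundant of the maternal members, lay between 1405 and 1641 CPM in GV oocytes, 1028 and 1236 in MII oocytes, 1458 and 1576 in zygotes and 551 and 641 in 2-cell embryos. Its MII libraries were all below its GV and zygote libraries.

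Per kilobase of annotated exon, the 3 main maternal members were close to each other before cleavage. In zygotes Obox5 was at 5891 ± 398, Obox2 at 5120 ± 433 and Obox1 at 4810 ± 285 CPM per kb. Within 1 SD the interval of Obox2 overlapped those of both Obox1 and Obox5. Obox7 was at 953 ± 33.4 CPM per kb. In 2-cell embryos the order was Obox5 at 7311 ± 827, Obox1 at 1925 ± 219, Obox2 at 526 ± 66.6, Obox7 at 372 ± 28.2, Obox6 at 157 ± 36.8 and Obox3 at 125 ± 13.4 CPM per kb (SD, n = 4). The last pair lay within 1 SD of each other. Of the 150-base stretches of Obox1 and Obox2 transcripts, 34.1% and 38.2% occur in another Obox transcript, and exons of these genes overlap by 59 bases. Their separate values are therefore uncertain as far as such reads were split or dropped. The share was 0% for Obox5, Obox6 and Obox7, 4.54% for Obox3 and 26.1% for Obox3-ps4.

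Obox3, the 2-cell member, was highest in 2-cell embryos and low at the stages before and after. Its libraries lay between 1.18 and 2.27 CPM in GV oocytes, 0.175 and 0.634 in MII oocytes and 0 and 0.876 in zygotes. At the 2-cell stage they lay between 357 and 447 CPM, 843-fold above the zygote mean. In 4-cell embryos they lay between 1.65 and 5.97 CPM, still above every MII and zygote library. Both Obox3 pseudogenes had the same course. Obox3-ps1 was at 2.26 ± 1.36 CPM in zygotes, 95.2 ± 17.4 in 2-cell embryos and 1.47 ± 0.74 in 4-cell embryos (SD, n = 4). Obox3-ps4 was at 0.439 ± 0.260, 44.6 ± 17.7 and 0.526 ± 0.587 CPM. Obox6-ps1 was at 0.557 CPM at most in any transcriptome and was not tested.

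Obox6, a homeobox gene with few reads in oocytes, as Obox3 had, rose at the 2-cell stage and was still present in morulae. It had 0 to 10 reads per library in GV oocytes and 1 or 2 in zygotes. Its level in 2-cell embryos was 211 ± 49.4 CPM (SD, n = 4), at least 1338-fold above a zygote floor of 3 reads. Its libraries lay between 1366 and 2276 CPM at the 4-cell stage, 1092 and 1989 at the 8-cell stage and 622 and 1941 in morulae, stages that overlapped. In blastocysts they lay between 21.4 and 47.2 CPM, 43.3-fold below the morula mean.

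**Figure D2:**
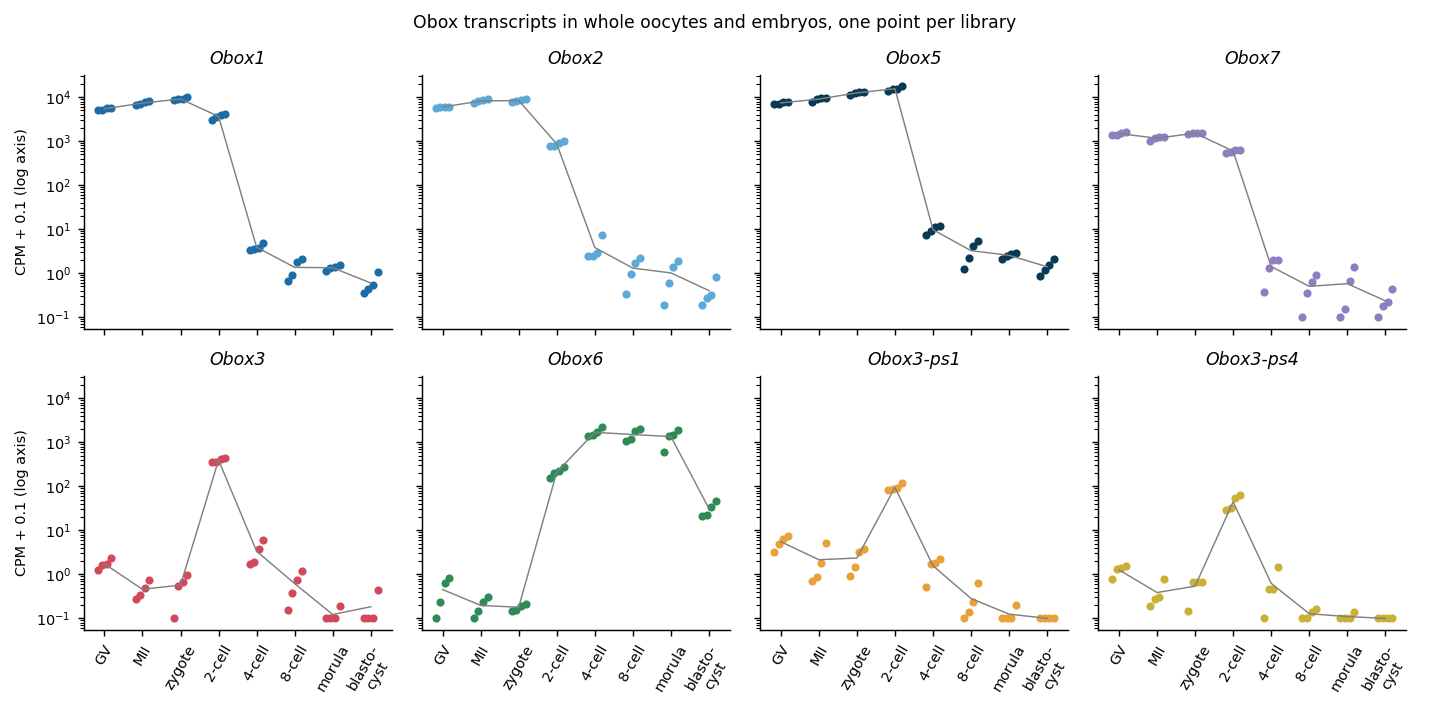
CPM + 0.1 on a log axis for 8 Obox members in the 4 transcriptome libraries of each stage (points, in order of value), with lines through the stage means. Obox1, Obox2, Obox5 and Obox7 stay at 551 CPM or more to the 2-cell stage, Obox3 and both of its pseudogenes peak there, and Obox6 is highest from the 4-cell stage to the morula.

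Between consecutive stages, few members changed before cleavage and nearly all changed around the 2-cell stage. In limma, 1 of the 8 members tested fell from GV to MII oocytes, Obox3-ps1 with −1.24 ± 0.31 on the log2(CPM + 1) scale (adjusted p = 0.00079), where 25.3% of all symbols tested were called lower. From MII oocyte to zygote no member was called, against 10.3% of all symbols. At an unadjusted p under 0.05 limma listed 2 members there, Obox5 (adjusted p = 0.073) and Obox1 (0.14), and edgeR on recovered reads called 0.

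From zygote to 2-cell embryo, 4 of 8 members rose, where 25.2% of symbols were called higher. Obox3 rose by 8.11 ± 0.25, Obox6 by 7.59 ± 0.26, Obox3-ps1 by 4.97 ± 0.31 and Obox3-ps4 by 4.92 ± 0.23 on the log2 scale (limma, adjusted p 4.5e-16 or less). Of the 4 maternal members 3 fell, where 8.71% of symbols were called lower. Their changes were −3.29 ± 0.25 for Obox2 (limma, adjusted p = 1.4e-13), −1.36 ± 0.22 for Obox7 (2e-06) and −1.33 ± 0.16 for Obox1 (5.5e-09). Obox5 was the member that was not called. The median change over the 8 members was 2.62, against 0.37 over all symbols tested. The Obox1 call was lost under quantile normalization, and the Obox7 call with a pseudocount of 0.1.

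From 2-cell to 4-cell embryo, 7 of 8 members fell, where 32.9% of symbols were called lower. The changes were −10.54 ± 0.20 for Obox5, −9.58 ± 0.16 for Obox1, −8.08 ± 0.22 for Obox7 and −7.63 ± 0.25 for Obox2 (limma, adjusted p 1.1e-24 or less). As ratios of mean CPM, the 2-cell levels were 1623, 964, 454 and 233 times the 4-cell levels. For Obox3 the change was −6.66 ± 0.25, and for Obox3-ps1 and Obox3-ps4 it was −5.33 ± 0.31 and −4.89 ± 0.23. Obox6 alone among the members tested rose, 8.05-fold in mean CPM (adjusted p = 9.3e-13), where 31.8% of symbols were called higher. The member median was −7.14, against 0.02 over all symbols.

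After the 4-cell stage the members called in transcriptomes were at first those left at low levels there, and then Obox6 in blastocysts. From 4-cell to 8-cell embryo 5 of 8 members fell, where 2.14% of symbols were called lower. They were Obox5 (−1.45 ± 0.20), Obox3 (−1.42 ± 0.25), Obox1 (−1.13 ± 0.16), Obox2 (−1.06 ± 0.25) and Obox3-ps1 (−1.02 ± 0.31) in limma. All of them started from 9.62 CPM or less. None of the 5 passed with a pseudocount of 5, and without the 8-cell library D or the 4-cell library D 2 and 3 of them did. From 8-cell embryo to morula no member was called, against 11.9% of symbols. At an unadjusted p under 0.05 limma listed 1 member there, Obox3, which edgeR called. From morula to blastocyst Obox6 fell by 5.35 ± 0.26 (limma, adjusted p = 6.1e-18), 1 of 8 members where 7.97% of symbols were called lower.

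Other genes of zygotic genome activation were counted from a fixed list. Of 27 members tested, 20 rose and none fell from zygote to 2-cell embryo, where 25.2% of all symbols were called higher and 8.71% lower. Among them Zfp352, a zinc-finger gene marking the 2-cell embryo, rose by 8.72 and Zscan4a, of a zinc-finger family switched on in 2-cell embryos, by 7.39 on the log2 scale in limma. From 2-cell to 4-cell 8 rose and 16 fell, where 31.8% of all symbols were called higher and 32.9% lower. Of the 9 tested members of a list of related homeobox genes, 3 rose from zygote to 2-cell and none fell, a share near the 25.2% of all symbols called higher. Crxos, a homeobox gene on the strand opposite Crx, rose by 7.68 and Dmbx1, a paired-type homeobox gene, by 1.87. From 2-cell to 4-cell 5 rose and 2 fell, against 31.8% and 32.9% of all symbols: Crxos rose by 3.69, and Nobox, an oocyte regulator of folliculogenesis, changed by −6.20. Crxos was at 211 ± 31.1 CPM at the 2-cell and at 2796 ± 770 CPM at the 4-cell stage.

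The transcripts most alike in course were named by Pearson's r of log2(CPM + 1) over the 32 transcriptome libraries, among 14634 symbols outside the family. For the sum of the maternal members they were Bcl2l10, an oocyte Bcl2-family gene, at r = 0.997, then E330034G19Rik, Btg4, an adaptor for removal of poly(A) tails, Nlrp9a and Trim61, at 0.996 or more. For Obox3 they were Pramel16 at r = 0.980, Spopfm3, Zscan4-ps3, Zscan4a and Pramel20. For the family sum they were Btbd10 at r = 0.973, Fam184a, Mbd3l2, Esco2 and Khdc1b. These r values describe libraries that share their stages.

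Along the gradients, fractions 6 to 10 were averaged as the heavy side and fractions 1 to 5 as the light side of each gradient. The labels number the fractions and do not say which end is dense, so "heavy" is the usual reading of that order. Each fraction was scaled to its own library, so a difference between sides is one of relative abundance and not of amount. In GV oocytes the maternal members lay on both sides. Obox5 was at 959, 1329 and 1147 CPM on the heavy side of gradients A, B and C and at 599, 728 and 610 on the light side. Obox1 was at 1055, 1420 and 1274 against 613, 738 and 819 CPM. The light means of gradients A and B include the fraction 1 libraries of under 0.1 M reads. There Obox5 rested on 12 and 23 reads and Obox1 on 12 and 35, at 970 to 1476 CPM. Heavy exceeded light in each gradient, and the differences of the 4 maternal members lay between 0.72 and 1.21 on the log2(CPM + 1) scale. No member was called in limma (adjusted p = 1, and 0 members at an unadjusted p under 0.05), against 0.0725% of all symbols.

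In MII oocytes the maternal members lay almost wholly on the heavy side. Obox5 was at 863, 1172 and 925 CPM on the heavy side of the 3 gradients and at 40.5, 30.4 and 75.7 on the light side. Obox1 was at 713, 943 and 935 against 43.7, 39.7 and 68.2 CPM. Obox2 was at 1189, 969 and 996 against 73.2, 49.2 and 143 CPM. Light-side levels were below those of every GV gradient for all 3 genes. Heavy-side levels overlapped those of GV oocytes for Obox5 and Obox2 and were below them for Obox1. In limma 3 of 8 members were higher on the heavy side, where 1.71% of symbols were called higher: Obox5 by 4.40 ± 0.78 (adjusted p = 0.00033), Obox1 by 4.10 ± 1.01 (0.013) and Obox2 by 3.69 ± 0.73 (0.0013). Obox7, at 111, 144 and 60.8 against 14.0, 11.8 and 11.95 CPM, differed by 2.88 ± 0.95 (adjusted p = 0.093). It was called with the gradient as a block in limma (adjusted p = 0.043). The Obox1 call was lost when any of the 3 MII gradients was left out (adjusted p up to 0.17), and the Obox2 call without gradient B.

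Zygotes had the same arrangement. Obox5 was at 1453, 1444 and 2221 CPM on the heavy side and at 96.2, 23.3 and 63.6 on the light side. Obox1 was at 990, 978 and 1434 against 101, 35.2 and 48.5 CPM. The sides did not overlap for either gene. Again 3 of 8 members were higher on the heavy side, where 2.14% of symbols were: Obox5 by 4.97 ± 0.78 (limma, adjusted p = 7.9e-05), Obox1 by 4.30 ± 1.01 (0.010) and Obox2 by 3.56 ± 0.73 (0.0025). Obox7 differed by 2.73 ± 0.95 (adjusted p = 0.12). Without zygote gradient C only Obox5 remained called, and without gradient B Obox1 was not.

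The change in this heavy-light difference between stages was tested as an interaction, which was added after the data were seen. From GV to MII oocyte it was 3.58 ± 1.10 for Obox5, 3.31 ± 1.43 for Obox1, 2.97 ± 1.03 for Obox2 and 1.67 ± 1.34 for Obox7. No member was called (limma, adjusted p = 0.37 for Obox5), against 0.185% of all symbols, and 3 had an unadjusted p under 0.05: Obox5, Obox1 and Obox2. A fit of these 2 stages alone, whose spread is their own, called Obox5, Obox1 and Obox2 (adjusted p = 0.00058, 0.00051 and 0.0068). From MII oocyte to zygote no member was called in limma or had an unadjusted p under 0.05, against 0.0198% of symbols called, with changes of the maternal members between −0.16 and 0.57.

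**Figure D3:**
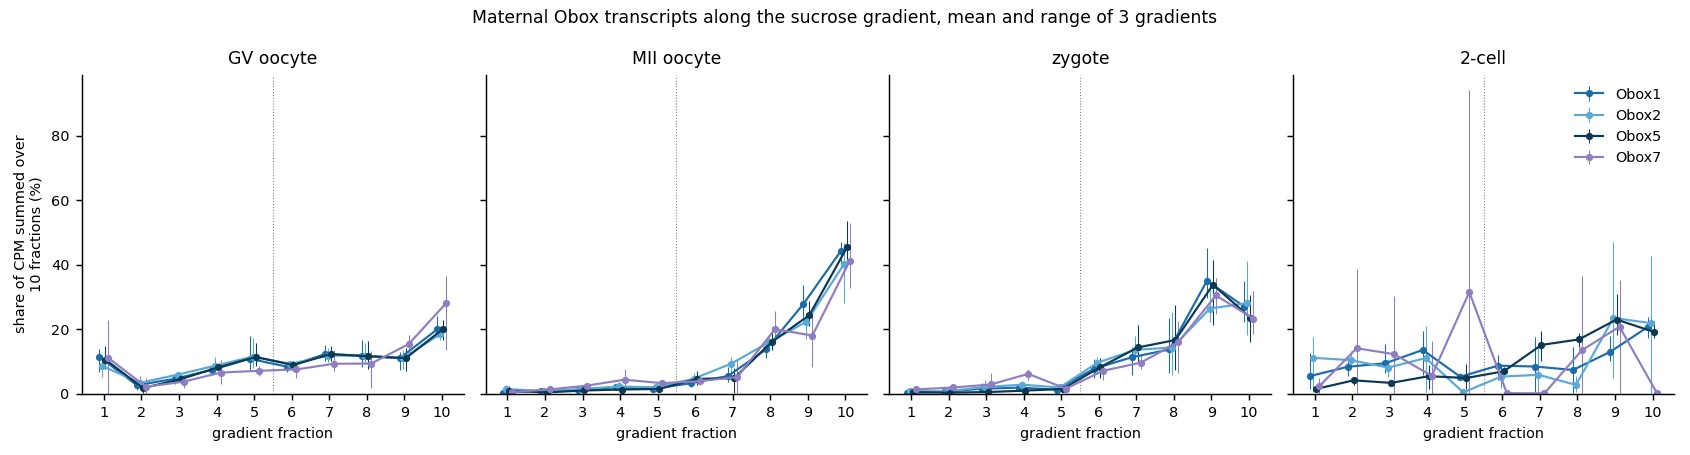
Share (%) of the CPM summed over 10 fractions, by gradient fraction, for the 4 maternal members at 4 stages; points are means and bars the range of 3 gradients, and the dotted line parts light from heavy fractions. The shares are spread over all fractions in GV oocytes and lie mainly in fractions 8 to 10 in MII oocytes and zygotes. The 2-cell profiles of Obox1, Obox2 and Obox7 are spread again, with Obox7 of gradient A mainly in fraction 5, at 101.5 CPM.

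The mean fraction number, weighted by CPM, put this on a scale from 1 to 10. For Obox1 it was 6.42 ± 0.12 in GV oocytes, 8.80 ± 0.09 in MII oocytes, 8.39 ± 0.09 in zygotes and 6.24 ± 0.23 in 2-cell embryos (SD, n = 3 gradients). For Obox5 it was 6.48 ± 0.20, 8.79 ± 0.26, 8.35 ± 0.31 and 7.45 ± 0.13. The GV values include fraction 1 of gradients A and B, the libraries of under 0.1 M reads. Over fractions 2 to 10, Obox1 was at 7.12 ± 0.18 in GV and 8.82 ± 0.11 in MII oocytes and Obox5 at 7.13 ± 0.20 and 8.86 ± 0.19, a smaller step between these stages. Symbols were ranked where they summed to at least 10 CPM over the fractions of each gradient, 10613 in GV and 10290 in MII oocytes. Their median mean fraction numbers over all fractions were 5.77 in GV oocytes, 5.53 in MII oocytes, 5.46 in zygotes and 5.20 in 2-cell embryos. In MII oocytes the 4 maternal members lay above 99.6% or more of the ranked symbols, and in GV oocytes above 75.8% or more. Over fractions 2 to 10 these shares were 99.3% and 75.7%.

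In 2-cell embryos none of the maternal members was called on either side in limma, and their differences were not tested against each other. Obox5 was at 3112, 2543 and 5277 CPM on the heavy side and at 852, 495 and 1270 on the light side, which did not overlap. Its difference was 2.09 ± 0.78 (limma, adjusted p = 0.055). It was called with the gradient as a block (limma, adjusted p = 0.022). Obox1, at 260, 590 and 678 against 161, 391 and 618 CPM, had a difference of 0.47 ± 1.01, and Obox2 one of 0.56 ± 0.73. Obox7 was at 0.145, 12.8 and 200 CPM on the heavy side and at 21.4, 28.7 and 78.1 on the light side, which overlapped.

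Obox3 and its pseudogenes, newly present, lay on the heavy side of the 2-cell gradients. Obox3 was at 52.4, 226 and 131 CPM heavy and at 3.03, 35.6 and 58.0 light. These sides overlapped between gradients but heavy exceeded light in each. In limma 3 of 8 members were higher on the heavy side, where 6.43% of symbols were: Obox3 by 2.51 ± 0.75 (adjusted p = 0.016), Obox3-ps1 by 2.75 ± 0.45 (2.7e-05) and Obox3-ps4 by 2.73 ± 0.47 (4.9e-05). Without 2-cell gradient A or B the Obox3 call was lost. The SEs come from 1 fit over 8 stages, and both pseudogenes had few reads in most fractions of the others. Such SEs can be smaller than the spread of the 2-cell gradients alone. In gradients A, B and C the heavy side held 76.9%, 73.0% and 98.5% of the summed CPM of Obox3-ps1. For Obox3-ps4 it held 94.1%, 94.5% and 85.9%. In a fit of the 2-cell stage alone 1 member was called, Obox5, and neither pseudogene was. Within gradients the Obox3 reads were patchy: in gradient A 226.6 CPM stood in fraction 9 and 0 CPM in 6 of 10 fractions. Depth of 2-cell fractions ran from 0.397 to 18.4 M reads.

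Between zygote and 2-cell embryo, the heavy-light difference became larger for 2 of 8 members, where 1.73% of symbols were called higher. They were Obox3-ps1 with 2.92 ± 0.64 (limma, adjusted p = 0.0042) and Obox3-ps4 with 2.75 ± 0.66 (0.010). Their SEs again come from the fit over all stages. In zygotes they were at 1.81 and 1.73 CPM at most in any fraction, and both met the filter only through the 2-cell stage. These changes therefore repeat their 2-cell differences and add no support of their own. The maternal members had changes from −2.87 ± 1.10 (Obox5) to −4.08 ± 1.34 (Obox7), not called (limma, adjusted p between 0.073 and 0.14). With the gradient as a block 5 members were called, Obox2 (limma, adjusted p = 0.039) and Obox7 (0.038) downwards and Obox3 (0.0093) and both of its pseudogenes upwards. Obox3 too was near the floor in zygotes, at 1.45 CPM at most in any fraction.

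**Figure D4:**
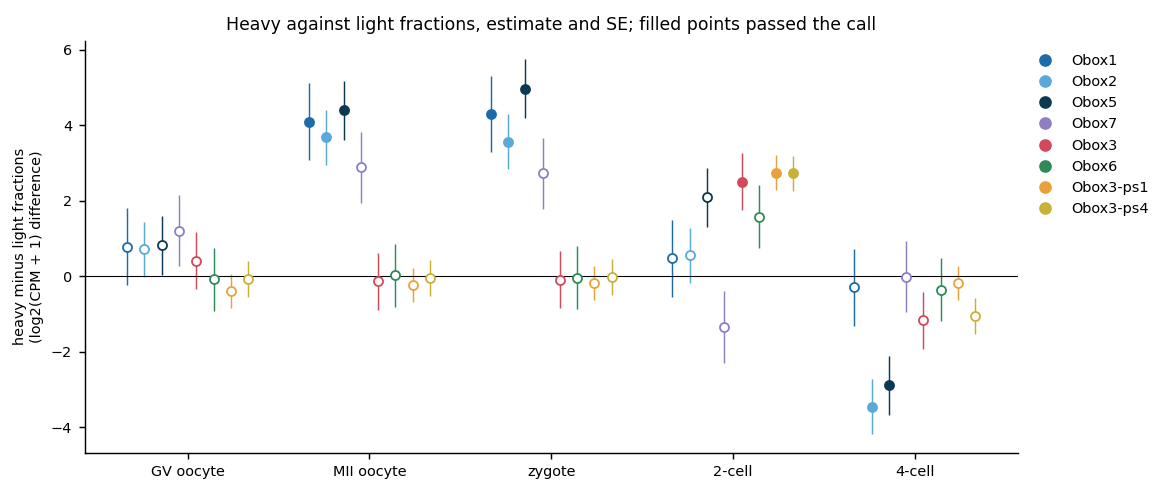
Heavy minus light difference on the log2(CPM + 1) scale, estimate and SE from limma over 3 gradients per stage, for 8 members at 5 stages; filled points passed the call. Obox1, Obox2 and Obox5 are filled in MII oocytes and zygotes, Obox3 and both pseudogenes in 2-cell embryos, and Obox2 and Obox5 are filled below 0 in 4-cell embryos.

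In 4-cell embryos the mean CPM of what was left of Obox5 and Obox2 was higher on the light side of each gradient. Obox5 was at 3.16, 9.76 and 13.2 CPM heavy and at 94.0, 86.1 and 30.0 light, which did not overlap. Obox2 was at 0.0700, 0.214 and 0.243 against 4.53, 7.96 and 41.6 CPM. Obox1 had no common side, at 0.0350, 28.7 and 2.05 CPM heavy and at 1.47, 0.409 and 48.8 light, with 141.9 CPM in fraction 8 of gradient B and 232.1 in fraction 5 of gradient C. In limma 2 of 8 members were lower on the heavy side, where 12.9% of symbols were: Obox2 by −3.45 ± 0.73 (adjusted p = 0.00086) and Obox5 by −2.89 ± 0.78 (0.0082). These rest on few fractions: in gradient A, fraction 4 held 421.9 CPM of Obox5 and 6 of 10 fractions held 0. In gradient C the light mean of Obox5 came mainly from fraction 1, at 129.5 CPM from 44 reads. Fraction 9 of that gradient held 55.4 CPM from 1210 reads. The mean fraction number of Obox5 was 3.54 ± 0.43 over all fractions (SD, n = 3 gradients). Over fractions 2 to 10 it was 4.97 ± 2.19, so its light position rests partly on fraction 1. The Obox5 call was lost without gradient A, neither passed in a fit of the 4-cell stage alone, and with the gradient as a block Obox3 passed too (−1.16, limma adjusted p = 0.0496). From 2-cell to 4-cell the heavy-light difference became lower for 5 of 8 members, where 7.22% of symbols were called lower: Obox5 by −4.98 ± 1.10, Obox2 by −4.01 ± 1.03, Obox3-ps4 by −3.79 ± 0.66, Obox3 by −3.67 ± 1.07 and Obox3-ps1 by −2.94 ± 0.64. Both pseudogenes were at 0 CPM on the heavy side of every 4-cell gradient. Obox3-ps1 was at 1.15 CPM at most in any 4-cell fraction. For the pseudogenes a shift along the gradient therefore cannot be told apart from loss of the transcript. In a fit of these 2 stages alone none of the members and 0 of all symbols passed. In 8-cell gradients Obox1, Obox2 and Obox5 still reached 280, 162 and 220 CPM in single fractions. They were at 10 CPM or more in 10, 11 and 12 of 30 8-cell fractions, against 4, 3 and 12 of 30 4-cell fractions. Their medians over the 8-cell fractions were 0, 0.620 and 0.819 CPM. This step was not tested in the fractions.

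Heavy-side levels followed the transcriptomes in outline. From GV to MII oocyte and from MII oocyte to zygote no member was called on the heavy side, against 4.06% and 1.49% of symbols. At an unadjusted p under 0.05 limma listed 0 members at either step, and edgeR called 0. From zygote to 2-cell 4 of 8 members rose, where 5.10% of symbols were called higher: Obox3 by 6.82 ± 0.60, Obox3-ps1 by 5.67 ± 0.42, Obox6 by 5.35 ± 0.78 and Obox3-ps4 by 4.02 ± 0.36 (limma, adjusted p 4.6e-05 or less). Both pseudogenes met the filter of 1 CPM in 3 means only through the 2-cell stage. Their rise to it and fall after it were thus set by the filter and add no support to these counts. Obox2 (−3.01 ± 0.62, limma adjusted p = 0.0014) and Obox7 (−3.05 ± 1.06, 0.046) fell, 2 of 8 members where 15.7% of symbols were called lower. The Obox7 call was lost in 11 of 15 alternatives, among them leaving out any zygote gradient or the 2-cell gradient A or B. With a gradient left out, 4 to 5 members were called at this step in place of 6. From 2-cell to 4-cell 7 of 8 members fell, where 22.3% were called lower, with changes from −8.66 ± 0.90 (Obox5) to −3.88 ± 1.06 (Obox7). Obox6 rose by 2.65 ± 0.78 (adjusted p = 0.010), where 15.6% were called higher, a call lost without 2-cell gradient A, in edgeR and in a fit of these stages alone.

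The gradient fractions, on either side, held a small relative abundance of the maternal members for their level in whole GV and MII oocytes. Obox5 was at 1836 CPM at most in any GV fraction, against a transcriptome mean of 7433. In MII fractions it was at 3214 CPM at most, against 9070. In GV oocytes the ratio of the heavy mean to the transcriptome mean was 0.228 for Obox1, 0.167 for Obox2, 0.154 for Obox5 and 0.0765 for Obox7, against a median of 0.808 over 7064 symbols of at least 10 CPM. In MII oocytes the 4 ratios lay between 0.0898 and 0.128, against a median of 0.654. In 2-cell embryos Obox5 was at 0.233 and Obox3 at 0.343, against 0.706. The 2 kinds of library differ in input and preparation, so a ratio below the median has no absolute meaning.

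Heavy change beyond the transcriptome change was tested in 1 model of both kinds of library, as their interaction with stage. From GV to MII oocyte and from MII oocyte to zygote no member was called in limma, against 8.22% and 2.28% of symbols. At an unadjusted p under 0.05 there were 1 (Obox3-ps1) and 0. From zygote to 2-cell Obox6 was the member called, with −2.24 ± 0.72 (limma, adjusted p = 0.016), 1 of 8 where 26.0% of symbols were called lower. Leaving out 2-cell gradient A, whose heavy side held 5.58 CPM of Obox6 against 143 and 70.8 in gradients B and C, ended that call. In zygotes Obox6 was at 0 CPM on the heavy side of every gradient and at a transcriptome mean of 0.0791 CPM. The value therefore rests on its 2-cell levels in the 2 kinds of library, and shows no change from a zygote relation. From 2-cell to 4-cell Obox1 with 2.88 ± 0.76 (adjusted p = 0.0030) and Obox7 with 4.20 ± 0.94 (0.00052) were called, 2 of 8 where 13.8% of symbols were called higher. Obox7 was at 0 CPM on the heavy side of all 3 gradients of 4-cell embryos. Its fitted value therefore depends on the pseudocount. Obox1 was also low there, with heavy means between 0.0350 and 28.7 CPM and a 4-cell transcriptome mean of 3.79 CPM. The highest of these heavy means came mainly from 141.9 CPM in fraction 8 of gradient B. Without 2-cell gradient C 5 members were called.

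Obox6, the member of the cleavage stages, differed in side between the gradients of 2-cell embryos, 4-cell embryos and morulae, and was higher on the light side of each gradient in 8-cell embryos and blastocysts. In 2-cell embryos it was at 5.58, 143 and 70.8 CPM heavy and at 34.9, 0.358 and 50.9 light, with its mean fraction number at 7.25 ± 2.49. In gradient B 714 CPM stood in fraction 10 and 1.79 at most elsewhere. In 4-cell embryos it was at 136, 431 and 281 against 163, 281 and 756 CPM, a difference of −0.36 ± 0.84 (limma, adjusted p = 0.93). In 8-cell embryos it was at 334, 710 and 419 against 495, 777 and 879 CPM, light above heavy in each gradient. In morulae it was at 151, 64.1 and 130 against 102, 99.4 and 138, and in blastocysts at 27.7, 36.4 and 29.5 against 44.4, 51.2 and 30.8 CPM, light again above heavy in each gradient. Its mean fraction numbers from the 4-cell stage on were 5.66 ± 1.09, 5.37 ± 0.43, 5.77 ± 0.59 and 5.40 ± 0.43, against medians over the symbols ranked in the same way of 4.93, 5.64, 5.80 and 5.43. In those stages no difference from the other symbols was tested.

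**Figure D5:**
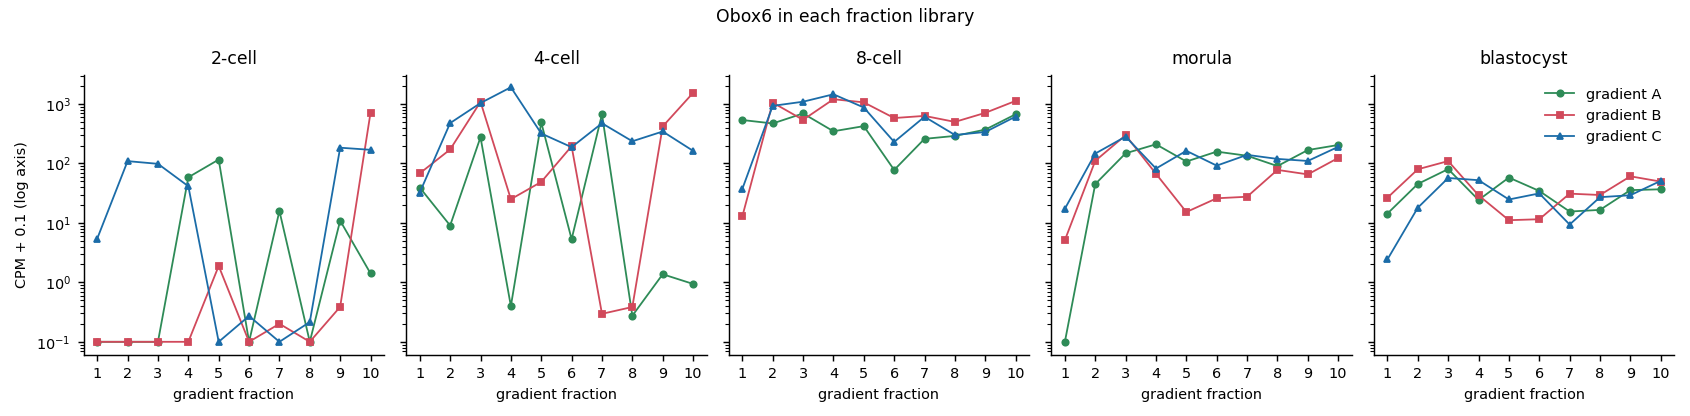
Obox6 in every fraction library from the 2-cell stage to the blastocyst, as CPM + 0.1 on a log axis against the fraction number, with 1 line per gradient. The lines jump between neighbouring fractions, as in 2-cell gradient B with 714 CPM in fraction 10. Later stages swing too: 8-cell gradient C goes from 1459 CPM in fraction 4 to 230.1 in fraction 6, and morula gradient B from 299 CPM in fraction 3 to 15.1 in fraction 5.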

How the data were processed

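The authors deposited 1 table of CPM values per gene symbol and library, and per the submitters' processing notes they used Trim Galore 0.6.7, FastQC, HISAT2 2.2.1, featureCounts 2.0.1 and edgeR with GRCm39. The annotation and the treatment of reads that map to several genes are not given in the sources used here. The 4 transcriptome columns of the 2-cell stage have letters (E to H) other than those in the labels (A to D), so they were taken as replicates of that stage by name and not tied to single samples. In 9 columns that sum to over 1 M, recorded as signal, the authors had scaled reads as elsewhere, and they were used as deposited CPM. In 271 libraries (all but 1 fraction) all values (100%) were whole reads within 0.05 reads. Per the labels' protocols, Smart-seq amplification of poly(A) RNA was followed by Nextera XT tagmentation, without molecular identifiers, so floors of 3 reads cover counting error only.

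The members and lists were chosen with earlier results of these data known. Rows with identical values (76 groups, 159 symbols) were reduced to 1 each. limma 3.58.1 (R 4.3.3) was run with trend on log2(CPM + 1) over all stages, for symbols of at least 1 CPM in at least 4 transcriptomes or 3 gradient means. Fold changes on this scale understate those of low genes. A call needed an adjusted p under 0.05 and a change of at least 1. Text names every Obox symbol, up to 4 called members of each list by size of change, and the 5 symbols most alike by r. Heavy and light sides of a gradient come from 1 lysate and are paired by design, with correlations of their deviations between 0.0074 and 0.254, over 0.1 in 8 of 15. Alternatives were pseudocounts of 0.1 and 5, no filter, quantile normalization, fits of the compared stages alone, edgeR 4.0.16 on recovered reads, other limits of the sides, a replicate block and leaving out each replicate. No transcriptome pair of 48 agreed within sampling noise (chi-square per degree of freedom at least 5.08). The fits were tested on simulated data. Gene lengths were taken from GENCODE, and start-site windows from RefSeq on GRCm38.p6; no coordinate was carried between builds.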

Additional observations from a re-analysis of the deposited data

Results flagged for a closer look

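Dixon's test was applied to the 4 transcriptome libraries of each stage, in 59 groups for single members with over 3 reads in some library and 16 groups for the family and maternal sums. It set apart 1 library in each of 5 groups. Chance alone sets apart about 1 group in 20 of the 75 examined, so this number is near the chance level. Obox5 in the MII library A was at 7967 CPM, below the other 3 at 9315 to 9582, and Obox7 in the same library was at 1028 CPM, below 1202 to 1236. Obox2 in the 4-cell library D was at 7.39 CPM, above 2.32 to 2.81 in the others. Obox3-ps4 in the zygote library A was at 0.0493 CPM, which is 1 read. Obox3 in the blastocyst library B was at 0.336 CPM, which is 6 reads, with 0 in the others.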

How the results depend on the processing

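No result changed direction. Counts are members called of 8. For GV to MII in transcriptomes (1) they were 3 with a pseudocount of 0.1, 0 with 5, 0 with quantile normalization, 2 in edgeR and 1 to 2 when a replicate was left out. For 4-cell to 8-cell (5) they were 0 with a pseudocount of 5, 2 with quantile normalization, 2 with the compared groups alone and 2 to 5 without a replicate. For 8-cell to morula (0), a pseudocount of 0.1 and edgeR each gave 1; for morula to blastocyst (1) they gave 2 and 5. Heavy against light gave 1 to 2 in MII oocytes (3) and 1 to 3 in zygotes (3) without a replicate, 1 in 2-cell embryos (3) with that stage alone, and in 4-cell embryos (2) 1 with a pseudocount of 0.1, 1 with quantile normalization and 0 with that stage alone. The added test of change in that difference gave, for GV to MII (0), 1 with a pseudocount of 5 and 3 with the compared groups alone. For zygote to 2-cell (2) it gave 0 with a pseudocount of 0.1, 6 with 5, 1 with the compared groups alone and 1 to 3 without a replicate. For 2-cell to 4-cell (5) it gave 3 with quantile normalization and 0 with the compared groups alone. Heavy change beyond the transcriptome gave 0 to 1 for GV to MII (0) without a replicate. For zygote to 2-cell (1) it gave 2 with a pseudocount of 5, 2 with quantile normalization, 0 with the compared groups alone and 0 to 3 without a replicate. For 2-cell to 4-cell (2) it gave 1 with a pseudocount of 0.1, 5 with 5, 5 with quantile normalization, 1 with the compared groups alone and 2 to 5 without a replicate. On the heavy side, zygote to 2-cell (6) gave 4 to 5 and 2-cell to 4-cell (8) gave 6 to 8 without a replicate. Heavy against light in 2-cell embryos (3) gave 2 to 4 without a replicate. The cause of these shifts was not tested. Counts for zygote to 2-cell (7) and 2-cell to 4-cell (8) in transcriptomes stayed at 7 and 8 without any replicate.

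With the gradient letter as a replicate block, the change of the heavy-light difference from zygote to 2-cell gave 5 calls in place of 2. Heavy against light gave 4 in MII oocytes, 3 in zygotes, 4 in 2-cell and 3 in 4-cell embryos. Letters did not pair stages: correlations of deviations were over 0.1 in 0 of 12 heavy and 2 of 20 transcriptome pairs, and the block left the other counts as they were. No paired analysis was possible because the 2-cell transcriptome columns carry letters (E to H) other than those of the labels (A to D), for transcriptome and beyond-transcriptome comparisons that involve the 2-cell stage. In 4-cell and 2-cell fractions depth goes down to 0.178 and 0.397 M reads, so a 0 there limits less than a 0 in deeper libraries.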
